A study of Homo sapiens with 12 samples.

Results

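Presentation of peptides on MHC class I was followed through the mRNAs of 9 genes that make and load the complex: HLA-B, HLA-C, HLA-E, B2M, TAP1, TAP2, PSMB8, PSMB9 and NLRC5. They were taken by gene symbol from a table of raw read counts, where they are 9 of 56638 gene rows, and all 9 had enough counts to be tested among 19130 tested genes. The cells were of NT2/D1, a pluripotent line from a human embryonal carcinoma, which all-trans retinoic acid (ATRA) can drive to differentiate. The groups were PRMT6 knockout cells without ATRA, CRISPR/Cas9 control cells without ATRA, PRMT6 knockout cells given 1 µM ATRA for 3 days, and CRISPR/Cas9 control cells given the same ATRA, with 3 libraries each and 12 in all. PRMT6 is an arginine methyltransferase that modifies histone H3 and other proteins, and it was deleted with CRISPR/Cas9. The labels name 1 knockout line, so the line and the loss of PRMT6 cannot be told apart. Separate cultures within a group are not stated in the labels. The p-values then speak only of the scatter among these libraries, and that scatter may be technical.

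An MHC class I molecule is a heavy chain held together with beta-2-microglobulin and a short peptide. The peptide is cut from cytosolic proteins by the proteasome, in which the interferon-inducible subunits PSMB8 and PSMB9 can replace the constitutive PSMB5 and PSMB6, and is carried into the endoplasmic reticulum by the TAP1 and TAP2 transporter. NLRC5 is the transactivator of class I genes: it acts with RFX, CREB and ATF, and NF-Y factors bound to the SXY module of their promoters, while interferons act through IRF factors among others and inflammatory signals through NF-kB. Pluripotent and embryonal carcinoma cells are known for low class I presentation.

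The promoters of the genes differ in which of these factors' letters they hold, and the stretches below are shown for that reason. The RefSeq promoter table (GRCh38.p14, 250 bases before to 50 bases after each start) had entries for 7 of the 9 genes, and none for HLA-E and NLRC5. Both strands were searched for TGACGC (the core of the X2 box, bound by CREB and ATF factors), CCAAT (the NF-Y box), the interferon-stimulated response element (GAAA, any 2 bases, GAAA) and an NF-kB site (GGGAC joined to TTTCC), and capitals mark every match on either strand, with overlapping matches run together. These are letters of the reference genome, not of the alleles of NT2/D1 cells, and a match is a description of the letters only.
HLA-B, chr6:31357200-31357309, minus strand: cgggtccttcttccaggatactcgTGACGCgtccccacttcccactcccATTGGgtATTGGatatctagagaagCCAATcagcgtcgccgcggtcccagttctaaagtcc
HLA-C, chr6:31272113-31272222, minus strand: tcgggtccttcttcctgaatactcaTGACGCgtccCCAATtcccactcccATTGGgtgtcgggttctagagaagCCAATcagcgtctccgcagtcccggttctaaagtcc
B2M, chr15:44711363-44711482, plus strand: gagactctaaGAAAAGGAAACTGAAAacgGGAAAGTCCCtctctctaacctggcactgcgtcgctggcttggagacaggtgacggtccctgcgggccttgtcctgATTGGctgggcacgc
TAP1, chr6:32853739-32853850, minus strand: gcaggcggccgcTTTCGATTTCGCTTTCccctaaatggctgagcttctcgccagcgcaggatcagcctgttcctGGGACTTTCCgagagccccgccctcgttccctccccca
PSMB9, chr6:32854042-32854191, plus strand: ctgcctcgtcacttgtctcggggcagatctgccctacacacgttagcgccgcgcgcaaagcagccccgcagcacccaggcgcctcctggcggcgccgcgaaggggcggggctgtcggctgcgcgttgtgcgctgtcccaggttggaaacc
TAP2, chr6:32838740-32838839, minus strand: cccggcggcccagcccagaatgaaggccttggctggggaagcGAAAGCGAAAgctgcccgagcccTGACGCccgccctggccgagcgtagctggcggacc
Among all 35116 promoters of the table, TGACGC was found in 7.67%, CCAAT in 32%, the interferon element in 3.02% and the NF-kB site in 0.179%. The gamma-activated site (TTC, any 3 bases, GAA), searched as well and not marked, was found in 6.57% of promoters and in entries of TAP1 and PSMB8. HLA-B and HLA-C share the X2 core followed by CCAAT on either strand. TAP1 and PSMB9 also hold CCAAT in the 250 bases searched, outside the stretches shown. B2M and TAP1 hold both the interferon element and the NF-kB site. In the stretch of TAP2 the interferon element lies just before an X2 core. The stretch of PSMB9 shown, the 150 bases before its start, holds none of the letters marked. TAP1 and PSMB9 are read in opposite directions from starts 488 bases apart. The stretch shown for TAP1, with its interferon element and NF-kB site, lies between these starts. It is farther from the start of PSMB9 than the 250 bases searched.

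Library facts bear on every value that follows. Total counts were 25.5 to 60.4 M per library, at which 3 counts are 0.0433 to 0.128 CPM, the count scaled to library size in the usual way, here with TMM factors. PRMT6 itself had at most 0.0587 CPM in the 6 knockout libraries, against 1.94 to 29.9 CPM in the 6 control libraries. In pairwise chi-square comparisons of counts, the value per gene was 1.91 between knockout ATRA replicates 1 and 3 and 9.01 between knockout untreated replicates 1 and 2, whereas the other pairs within a group gave 78.1 to 416. The knockout groups may therefore hold fewer independent libraries than 3. The Spearman correlation across genes between GC content and a library's level over the all-library mean ran from 0.223 to 0.617 in knockout libraries and from -0.496 to 0.0971 in control libraries. Where removing the GC trend, or summing the near-identical libraries, turned the sign of a member between genotypes or ended a call named below, this is said in the same paragraph. The gene length listed in the deposited table was 3.56 to 7.86 times the GENCODE v44 exon length for the 7 members of the MHC region, against 1.01 times for B2M and 1 times for NLRC5, and the reason was not tested. These 7 include TAP1, TAP2, PSMB8 and PSMB9, at 4.60 to 7.86 times. How reads with several matches were counted is not given in the sources used here. Levels of the HLA genes are uncertain to that extent, and those of TAP1, TAP2, PSMB8 and PSMB9 may be too.

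The genes fell into a high and a low tier. Per kilobase of GENCODE v44 exon, the mean level over the 12 libraries was 123 CPM per kb for HLA-C, 66.3 for B2M, 20.9 for HLA-E, 20.04 for HLA-B, 1.19 for TAP1, 1.05 for TAP2, 0.735 for PSMB8, 0.179 for PSMB9 and 0.136 for NLRC5. Neighbours in this order overlapped in their ranges over libraries, as HLA-C with 84.0 to 164 CPM per kb and B2M with 42.7 to 103 CPM per kb did, except at 2 steps. The lowest B2M library, at 42.7 CPM per kb, lay above the highest HLA-E library, at 27.0 CPM per kb. The other step lay between the tiers, where the lowest HLA-B library, at 9.43 CPM per kb, lay above the highest TAP1 library, at 2.61 CPM per kb. The 4 genes of the complex itself thus stood above the 5 genes of peptide supply and transactivation in every library.

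**Figure D1:**
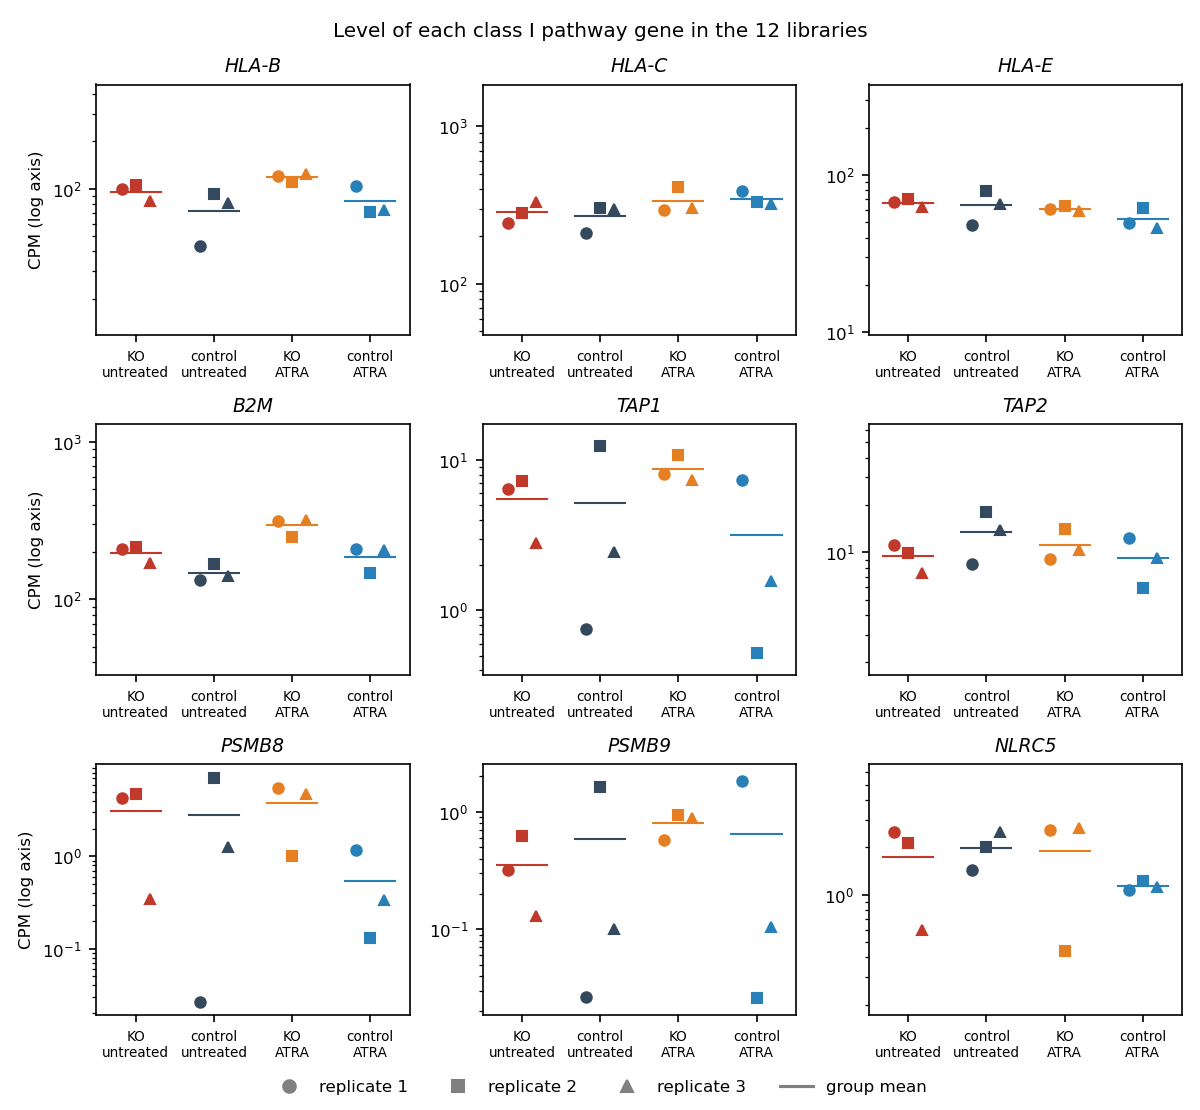
Level of each of the 9 genes in CPM (log axis) in the 4 groups; each point is 1 library, marker shapes give the replicate and the line is the group mean. The 3 heavy chains and B2M stay in a narrow band in their panels. TAP1 and PSMB9 span most of their panels within each control group, and PSMB8 within untreated control cells.

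None of the 9 genes passed the test in any of the 5 comparisons of the design. With edgeR's quasi-likelihood test, adjusted by Benjamini-Hochberg over all 19130 genes and called at an adjusted p under 0.05, 0 of 9 were called between knockout and control cells without ATRA, where 34.9% of all tested genes were called. With ATRA it was 0 of 9, against 7.51% of all genes. For ATRA against untreated it was 0 of 9 in knockout cells and 0 of 9 in control cells, against 0.0314% and 0.115% of all genes, and for the interaction 0 of 9, against 0% of all genes. At an unadjusted p under 0.05, 0 of 9 members passed between genotypes without ATRA (47.3% of all genes) and 1 with ATRA (28.1%). For ATRA against untreated 1 passed in knockout cells (11.7%) and 0 in control cells (20.7%), and for the interaction 0 (9.76%). The member that passed was B2M both times. DESeq2 called B2M between knockout and control cells with ATRA and no other member in these 5 comparisons, and limma-voom called none. A p that misses the threshold does not show that the levels were alike, and the intervals of the fitted changes are given with each gene.

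Of the heavy chains, HLA-B is a classical peptide-presenting chain of every nucleated cell. HLA-B had 99.95, 105 and 83.1 CPM in knockout cells without ATRA, against 43.6, 92.9 and 81.6 CPM in control cells without ATRA. With ATRA it had 121, 111 and 124 CPM in knockout cells, against 105, 71.4 and 73.2 CPM in control cells. The groups overlapped without ATRA and did not overlap with ATRA, where every knockout library was above every control library. The fitted log2 fold change of HLA-B was 0.40 (95% interval -0.17 to 0.98, adjusted p = 0.248) without ATRA and 0.51 (95% interval -0.06 to 1.09, adjusted p = 0.227) with ATRA in edgeR's test. With each library's GC trend removed, the value of HLA-B without ATRA turned to -0.14.

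HLA-C, the other classical chain and the most abundant of the 3, had 241, 279.9 and 329 CPM in knockout cells without ATRA, against 211, 303 and 299 CPM in control cells. With ATRA HLA-C had 292, 412 and 301 CPM in knockout cells and 389, 329 and 321 CPM in control cells. The genotypes overlapped under both treatments. The fitted log2 fold change between genotypes was 0.07 (95% interval -0.41 to 0.54) without ATRA and -0.05 (95% interval -0.52 to 0.42) with ATRA. It turned to -0.30 without ATRA with the GC trend removed, and to 0.032 with ATRA with the near-identical libraries summed. HLA-E presents leader peptides of other class I chains to natural killer cell receptors. HLA-E had 67.2, 70.2 and 62.3 CPM in knockout cells without ATRA and 47.8, 78.8 and 65.5 CPM in control cells. With ATRA it had 60.9, 63.1 and 59.4 CPM in knockout cells and 49.2, 61.6 and 45.8 CPM in control cells. The knockout libraries of HLA-E lay inside or close to the range of the control libraries, with log2 fold changes of 0.06 (95% interval -0.40 to 0.51) and 0.23 (95% interval -0.23 to 0.68). With the GC trend removed these turned to -0.52 without ATRA and -0.031 with ATRA.

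B2M, the light chain shared by all class I heavy chains, came nearest to the threshold. B2M had 208, 214 and 169.6 CPM in knockout cells without ATRA, against 133, 167 and 140.3 CPM in control cells without ATRA. With ATRA it had 317, 251 and 321 CPM in knockout cells, against 208, 148 and 205 CPM in control cells. No knockout library overlapped a control library under either treatment, although without ATRA the lowest knockout value lay close above the highest control value. Among all tested genes, libraries also did not overlap for 47.9% without ATRA and for 34.6% with ATRA, so a gap between groups of 3 is common in these data. Over the members, it was seen without ATRA for B2M alone and with ATRA for B2M and HLA-B.

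The fitted log2 fold change of B2M was 0.43 (95% interval -0.01 to 0.86, adjusted p = 0.112) without ATRA and 0.66 (95% interval 0.23 to 1.10, adjusted p = 0.0619) with ATRA. With ATRA, DESeq2 gave B2M an adjusted p of 0.0171, and over the other settings the adjusted p ran from 0.0171 to 0.262. Genotype averaged over both treatments was added after the data had been seen. In that contrast B2M was 0.55 ± 0.14 higher on the log2 scale in knockout cells (SE, adjusted p = 0.00921, edgeR), a 1.46-fold difference, and was the 1 of 9 members called, where 43.9% of all genes were called. With the near-identical knockout libraries summed, that adjusted p was 0.0669 and the call was lost. With the GC trend removed, the averaged change of B2M was 1.31, and B2M was also called in each treatment alone, at 1.49 without ATRA and 1.14 with ATRA. B2M transcripts are 38.9% GC, below the other members at 46.9% to 62.7%. HLA-B in the averaged contrast was at 0.46 ± 0.19 (SE, adjusted p = 0.064) and was not called.

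**Figure D2:**
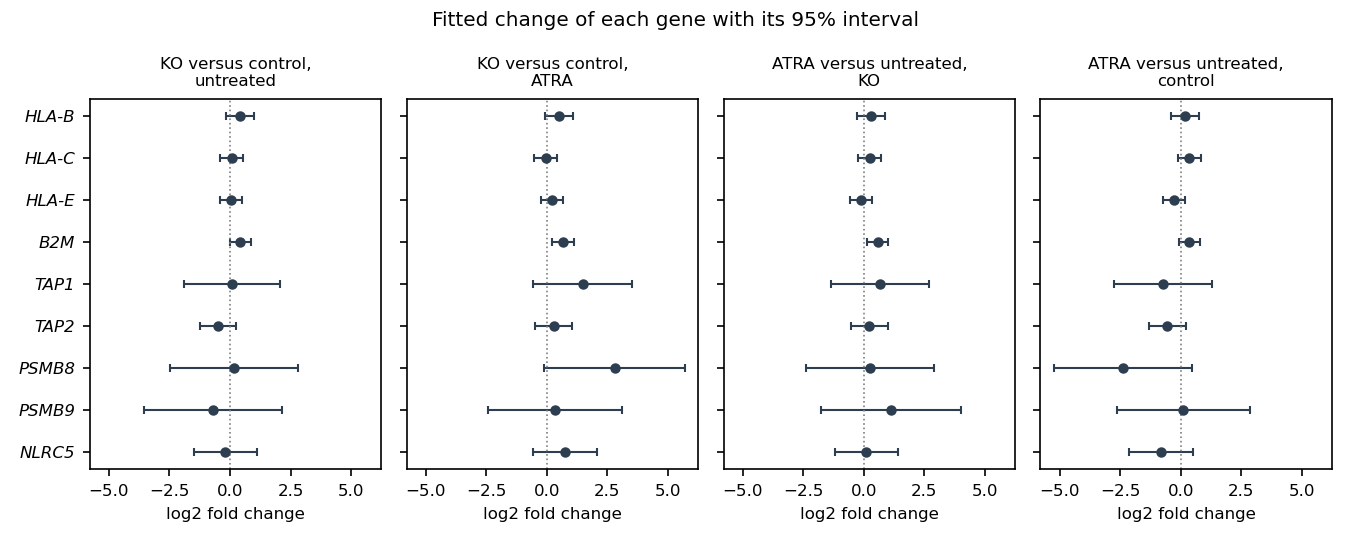
Fitted log2 fold change of each of the 9 genes with its 95% interval in 4 comparisons, with a dotted line at 0. The intervals of B2M and the heavy chains are narrow and B2M with ATRA lies at 0.66, whereas those of TAP1, PSMB8 and PSMB9 span several log2 units.

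TAP1 and TAP2 are the subunits of the peptide transporter. TAP1 had 6.43, 7.23 and 2.83 CPM in knockout cells without ATRA, against 0.747, 12.3 and 2.47 CPM in control cells without ATRA. With ATRA TAP1 had 8.12, 10.8 and 7.33 CPM in knockout cells, against 7.38, 0.520 and 1.58 CPM in control cells. Both control groups thus held 1 high library (untreated replicate 2 and ATRA replicate 1) beside 2 low ones, with a highest over lowest ratio of 16.5 in untreated and 14.2 in ATRA-treated control cells, against 2.56 and 1.48 in the knockout groups of the same treatments. The log2 fold change of TAP1 between genotypes was 0.08 (95% interval -1.92 to 2.08) without ATRA and 1.47 (95% interval -0.57 to 3.52) with ATRA. Without ATRA it turned to -0.53 with the GC trend removed and to -0.10 with the near-identical libraries summed. Leaving out control untreated replicate 2 moved the value without ATRA to 1.76, and leaving out control ATRA replicate 1 moved the value with ATRA to 3.06.

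TAP2 varied less. TAP2 had 11.1, 9.98 and 7.36 CPM in knockout cells without ATRA, against 8.41, 18.1 and 13.8 CPM in control cells. With ATRA it had 9.13, 14.0 and 10.4 CPM in knockout cells and 12.4, 5.95 and 9.26 CPM in control cells. The groups overlapped in both treatments, and the log2 fold changes were -0.50 (95% interval -1.26 to 0.25) without ATRA and 0.28 (95% interval -0.48 to 1.04) with ATRA.

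PSMB8 and PSMB9, also known as LMP7 and LMP2, are the inducible catalytic subunits of the proteasome. PSMB8 had 4.29, 4.78 and 0.342 CPM in knockout cells without ATRA, against 0.0267, 7.11 and 1.25 CPM in control cells without ATRA. The lowest of these is 1 count, for which the exact Poisson 95% interval is 0.000676 to 0.149 CPM, and it covers counting error only. With ATRA PSMB8 had 5.48, 0.998 and 4.79 CPM in knockout cells, against 1.17, 0.130 and 0.337 CPM in control cells. The 3 untreated control libraries alone span a ratio of 267, and the genotypes overlapped in both treatments. The log2 fold change of PSMB8 was 0.16 (95% interval -2.48 to 2.81) without ATRA and 2.80 (95% interval -0.11 to 5.70, adjusted p = 0.194) with ATRA. Without ATRA it turned to -0.52 with the GC trend removed and to -0.18 with the near-identical libraries summed.

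PSMB9 had 0.316, 0.622 and 0.128 CPM in knockout cells without ATRA, against 0.0267, 1.62 and 0.101 CPM in control cells without ATRA. With ATRA PSMB9 had 0.580, 0.939 and 0.881 CPM in knockout cells, against 1.81, 0.0260 and 0.104 CPM in control cells. The 1 high library of each control group is the one that was high in TAP1, and 2 of the 6 control libraries held 1 count of PSMB9 each. Its log2 fold changes were -0.70 (95% interval -3.56 to 2.16) and 0.33 (95% interval -2.43 to 3.08), intervals that include both a several-fold rise and a several-fold fall.

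Set against the constitutive subunits they replace, both inducible subunits were minor in every library. Per kilobase, PSMB5 exceeded PSMB8 by 80.4 to 14616 times and PSMB6 exceeded PSMB9 by 262 to 13834 times over the 12 libraries. The highest ratios rest on single counts, since PSMB8 and PSMB9 had 1 count each in control untreated replicate 1. PSMB9 also had 1 count in control ATRA replicate 2, where the ratio was 13389. The ratios further depend on the exon lengths taken, 3480 bases for PSMB8 and 3338 for PSMB9, against 1549 for PSMB5 and 1447 for PSMB6. The deposited length was 4.60 times the exon length for PSMB8 and 7.86 times for PSMB9, against 1.14 for PSMB5 and 0.981 for PSMB6. Whether the way of counting behind this lowered or raised the ratios was not tested. PSMB10, the inducible counterpart of PSMB7, was lower than PSMB7 by 79.8 to 288 times and varied far less between libraries than PSMB8 or PSMB9. PSMB10 had 2.64, 3.04 and 2.10 CPM in knockout cells without ATRA, against 0.801, 0.828 and 0.649 CPM in control cells. It was called higher in knockout cells without ATRA, by 1.77 ± 0.32 on the log2 scale (SE, adjusted p = 0.004). With ATRA PSMB10 had 3.51, 2.20 and 3.53 CPM in knockout cells and 2.43, 1.85 and 2.20 CPM in control cells, with a log2 fold change of 0.51 ± 0.31 (adjusted p = 0.305). Among the constitutive subunits, PSMB6 was called higher without ATRA (0.82 ± 0.22, adjusted p = 0.0159), whereas PSMB5 (0.80 ± 0.31, adjusted p = 0.0605) and PSMB7 (0.70 ± 0.28, adjusted p = 0.0706) were not. The call of PSMB6 was lost with the GC trend removed (adjusted p = 0.437) and with the near-identical libraries summed (adjusted p = 0.0665), and that of PSMB10 was kept in both.

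**Figure D3:**
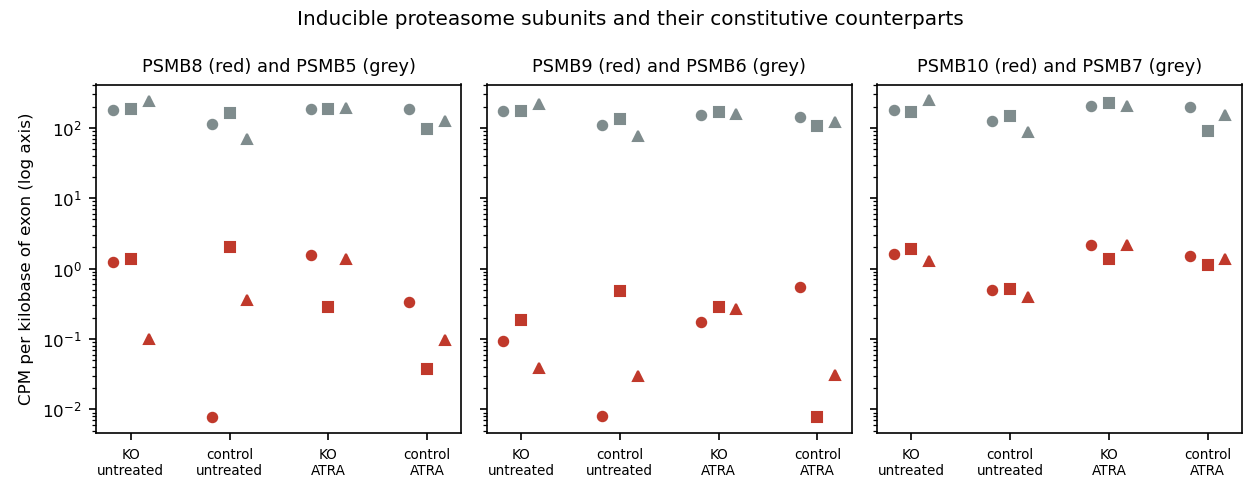
Level per kilobase of exon (CPM per kb, log axis) of the inducible subunits PSMB8, PSMB9 and PSMB10 (red) and their constitutive counterparts PSMB5, PSMB6 and PSMB7 (grey) in the 12 libraries; marker shapes give replicates 1 (circle), 2 (square) and 3 (triangle). The grey points lie far above the red ones in every library, and the red points of PSMB8 and PSMB9 scatter within groups while those of PSMB10 do not.

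NLRC5 is the transactivator of the class I genes. NLRC5 had 2.50, 2.13 and 0.599 CPM in knockout cells without ATRA, against 1.44, 2.03 and 2.49 CPM in control cells without ATRA. With ATRA NLRC5 had 2.58, 0.440 and 2.64 CPM in knockout cells, against 1.08, 1.22 and 1.11 CPM in control cells. Each knockout group held 1 low library, untreated replicate 3 and ATRA replicate 2, below all 6 control libraries, while its other libraries were at or above 2.13 CPM. The log2 fold change was -0.19 (95% interval -1.49 to 1.12) without ATRA and 0.73 (95% interval -0.59 to 2.05) with ATRA. Without those 2 libraries the values were 0.21 and 1.20, with an adjusted p of 0.0792 for the second. As those 2 were the lowest in NLRC5, higher values without them follow from the choice. Each knockout group then held only its near-identical pair of libraries, so that p may rest on fewer independent libraries than it counts.

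The same 2 knockout libraries stood apart in the summed markers of other cells. The summed level of 8 fibroblast and stromal markers, all of them above 1 CPM in at least 1 library, was 12049 to 13572 CPM in knockout untreated replicates 1 and 2 and knockout ATRA replicates 1 and 3. It was 2124 CPM in knockout untreated replicate 3 and 2166 CPM in knockout ATRA replicate 2, and 237 to 1366 CPM in the 6 control libraries. In the knockout libraries COL3A1 and COL1A1 made up most of it, and not all markers of the list followed the split. COL1A2 was at 47.3 CPM in knockout untreated replicate 3, against 36.0 and 38.0 CPM in replicates 1 and 2, THY1 at 252 CPM, against 236 and 245 CPM, and PDGFRA at 2.70 CPM, against 2.46 and 2.55 CPM. PSMB8 followed the same split, at 4.29 to 5.48 CPM in the 4 libraries high in stromal markers and at 0.342 and 0.998 CPM in the 2 others. The 5 pluripotency markers summed to 1281 to 4566 CPM in knockout and 2029 to 4232 CPM in control libraries. Here too the 2 libraries stood apart. Knockout untreated replicate 3 was at 4566 CPM, against 2605 and 2614 CPM in replicates 1 and 2. Knockout ATRA replicate 2 was at 2337 CPM, against 1306 and 1281 CPM in replicates 1 and 3. All 5 markers had counts in every library, and LIN28A had the most in each, so the sum says little of the others. In control ATRA replicate 1 LIN28A had 56057 counts, against 4767 for POU5F1, 1450 for SOX2 and 92 for NANOG. Of 7 leukocyte markers, whose cells are rich in class I and inducible proteasome mRNA, 4 exceeded 1 CPM in any library and the sum was 1.67 to 3.27 CPM in knockout and 2.32 to 23.1 CPM in control libraries. The highest sum, in control ATRA replicate 1, was mostly CD74 at 20.4 CPM, and PTPRC, the pan-leukocyte marker, was at 0.461 CPM there. The 6 trophoblast markers, of which 4 exceeded 1 CPM in any library and CGB5 had no counts, summed to 112 to 252 CPM in knockout libraries. In control libraries they summed to 8.33 CPM in untreated replicate 2, the library high in TAP1, PSMB8 and PSMB9, and to 103.9 to 164 CPM in the 5 others. Of that sum, GATA3 was at 3.50 CPM and TFAP2A at 3.89 CPM in untreated replicate 2. These 2 genes held most counts of the trophoblast list in every library. HLA-G of the same list was at most 0.0580 CPM in any library, and CGA had 0 to 80 counts. The 4 endothelial markers, of which 3 exceeded 1 CPM in any library and PECAM1 had no counts, summed to 8.24 to 16.9 CPM in knockout and 18.2 to 27.6 CPM in control libraries. The part of these markers' cells in the levels of class I genes was not tested, and in bulk RNA fewer cells of a type and less RNA per cell cannot be told apart.

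TAP1, PSMB8 and PSMB9 were among the most variable genes of the table within groups. The SD of log2(CPM + 0.1) among the 3 untreated control libraries was 1.95 for TAP1, 2.93 for PSMB8 and 2.01 for PSMB9, at percentiles 98.9, 99.8 and 99.0 of all tested genes. In knockout cells with ATRA the SD of TAP1 was 0.289 and that of PSMB9 was 0.332, at percentiles 57.7 and 64.0. NLRC5 showed the opposite split, with an SD of 1.34 in knockout and 0.0866 in control cells with ATRA, at percentiles 98.6 and 3.52. The chain genes lay lower, at percentiles 5.50 to 62.1 over the 4 groups, with HLA-B in untreated control cells and HLA-C in knockout cells with ATRA above the middle. The gene-wise biological coefficient of variation in edgeR, which pools the groups, was 0.201 for B2M, 0.21 for HLA-E, 0.213 for HLA-C and 0.249 for HLA-B, at percentiles 3.67 to 19.8 of all tested genes. It was 0.756 for TAP1, 1.01 for PSMB8 and 1.06 for PSMB9, at percentiles 97.6 to 99.7.

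**Figure D4:**
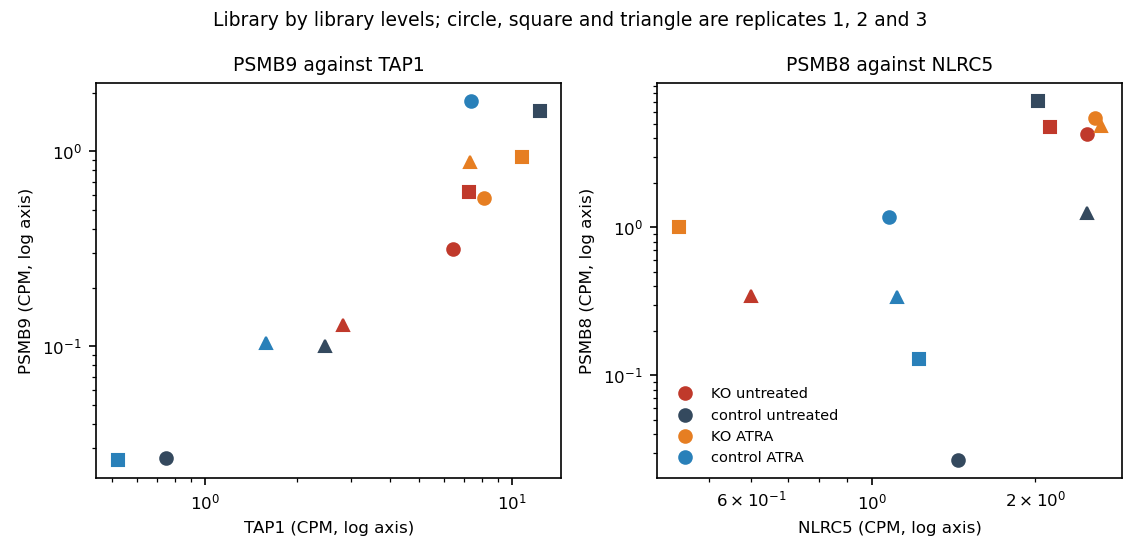
Level of PSMB9 against TAP1 (left) and of PSMB8 against NLRC5 (right) in CPM on log axes; each point is 1 library. PSMB9 and TAP1 lie along 1 line with control untreated 2 and control ATRA 1 at the top, whereas low PSMB8 goes with low NLRC5 in 2 knockout libraries and with middling NLRC5 in several control libraries.

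Which genes moved together from library to library can be described over the 12 libraries, which share groups and GC trends, so no test is given. The likeness of 2 profiles is the Pearson correlation of log2(CPM + 0.1). TAP1 and PSMB9, the neighbours with opposite reading directions, had a likeness of 0.913, TAP1 and PSMB8 of 0.862, and HLA-B and B2M of 0.812. HLA-B was closer to TAP1, at 0.840, and to PSMB8, at 0.819, than to B2M. HLA-C was less like the other chain genes, at 0.480 with HLA-B and 0.273 with B2M. The mean profile of HLA-B, HLA-C and B2M used below therefore joins genes that were not all alike. NLRC5 and PSMB8 had 0.581, and NLRC5 and HLA-C had -0.604. Among 11052 other genes with a mean of at least 5 CPM, those most like the mean profile of HLA-B, HLA-C and B2M were CDKN2D at 0.964, TOLLIP at 0.922, MAFK at 0.919, PITPNM1 at 0.919 and GABARAPL2 at 0.912. CDKN2D, which encodes a CDK inhibitor, ranged from 6.51 CPM in control untreated replicate 1, the lowest library for HLA-B too, to 17.0 CPM in knockout ATRA replicate 2. The gene most like PSMB8 was LRRC20 at 0.971 and that most like TAP1 was CCDC74B at 0.954; these 2 were looked for after the data had been seen.

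ATRA was compared with untreated cells within each genotype. In knockout cells B2M had 317, 251 and 321 CPM with ATRA, against 208, 214 and 169.6 CPM without, HLA-B had 121, 111 and 124 CPM with ATRA, against 99.95, 105 and 83.1 CPM without, and TAP1 had 8.12, 10.8 and 7.33 CPM with ATRA, against 6.43, 7.23 and 2.83 CPM without. In all 3 genes every library with ATRA was above every library without it, as was so in either direction for 31.9% of all genes. The log2 fold change of B2M with ATRA was 0.58 (95% interval 0.15 to 1.02, adjusted p = 0.267) in knockout cells and 0.35 (95% interval -0.09 to 0.78, adjusted p = 0.339) in control cells. In control cells HLA-C had 389, 329 and 321 CPM with ATRA, against 211, 303 and 299 CPM without, and NLRC5 had 1.08, 1.22 and 1.11 CPM with ATRA, against 1.44, 2.03 and 2.49 CPM without. These 2 genes did not overlap between treatments in control cells, as was so for 14.8% of all genes, and neither passed the test (adjusted p = 0.368 for HLA-C and 0.472 for NLRC5). The difference between genotypes in the response to ATRA was 0.24 on the log2 scale for B2M (95% interval -0.38 to 0.85) and turned to -0.35 with the GC trend removed. It was positive for 8 of 9 members and for 51.9% of all genes, and none of these members passed the test. The members share libraries and several are alike in profile, so the 8 are not separate results. Leaving out control untreated replicate 2 alone turned the values of HLA-B, HLA-E, TAP1 and PSMB9 negative. The knockout minus control comparison and the ATRA comparison share libraries, so their values are set side by side only.

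The surrounding genes of the pathway were described from 5 lists, with genes called in edgeR's test at an adjusted p under 0.05. Over the 5 lists, 19 of 52 tested genes were called without ATRA, 36.5%, close to the 34.9% of all genes, and 7 with ATRA, 13.5%, against 7.51% of all genes. With the near-identical knockout libraries summed, 3 of the 19 and 0 of the 7 were still called, and with the GC trend removed 6 of the 19 and 5 of the 7. The counts per list below are therefore a description of the named genes. Without ATRA, peptide loading genes had 2 called higher and 1 lower in knockout cells among 8 tested of 9, with a median log2 fold change of 0.21, against -0.11 over all genes. The 3 were SEC61A1, a subunit of the endoplasmic reticulum translocon (1.39 ± 0.28, adjusted p = 0.00557), CALR, the chaperone calreticulin (1.05 ± 0.26, adjusted p = 0.0107), and CANX, the chaperone calnexin (-0.80 ± 0.21, adjusted p = 0.0133). CALR had 2271, 2233 and 1841 CPM in knockout cells, against 1029, 1048 and 994 CPM in control cells. SEC61A1 was still called with the near-identical libraries summed and with the GC trend removed, CALR and CANX with neither, and CANX turned to 0.072 with the GC trend removed. With ATRA SEC61A1 (1.03 ± 0.28, adjusted p = 0.0437) and TAPBP, which encodes tapasin, the bridge between class I and the transporter (1.15 ± 0.29, adjusted p = 0.0358), were called higher and none lower, with a median of 0.30, against -0.06 over all genes. TAPBP had 40.4, 22.3 and 37.8 CPM in knockout cells with ATRA, against 11.8, 15.7 and 17.9 CPM in control cells with ATRA. The call of TAPBP was lost under both settings and that of SEC61A1 with ATRA when the libraries were summed.

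Among 9 proteasome core and activator genes, 2 were called higher without ATRA (PSMB10 and PSMB6) and 2 lower (PSME4 and POMP), with a median of 0.45. PSME4, a proteasome activator of the nucleus, was lower in knockout cells, with a log2 fold change of -1.53 ± 0.32 (adjusted p = 0.0063) without ATRA and of -1.55 ± 0.32 (adjusted p = 0.0174) with ATRA, where it was the 1 gene of the list called. POMP, the assembly chaperone of the proteasome, was at -1.29 ± 0.35 (adjusted p = 0.0164) without ATRA. Of 8 other class I and class I-like heavy chains, 7 were tested and CD1D, which presents lipids to T cells, was the 1 called, higher in knockout cells by 1.54 ± 0.41 (adjusted p = 0.0153) without ATRA and by 2.49 ± 0.43 (adjusted p = 0.0094) with ATRA. With the near-identical libraries summed, PSME4, POMP and CD1D were called in neither treatment; with the GC trend removed PSME4 was kept in both treatments, CD1D with ATRA, and POMP was lost. The median of these heavy chains was 0.44 without and 0.26 with ATRA.

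Among 21 genes for class I promoter factors and the interferon pathway, 3 were called higher and 6 lower in knockout cells without ATRA, with a median of -0.30. The 2 with the smallest adjusted p were RELA, an NF-kB subunit (1.10 ± 0.21, adjusted p = 0.00434), and NFYB, a subunit of the CCAAT-binding factor NF-Y (-1.80 ± 0.38, adjusted p = 0.00644). NFYB had 13.0, 13.3 and 16.5 CPM in knockout cells, against 27.0, 80.5 and 40.8 CPM in control cells. The other factors of the SXY module that were called were chosen for naming after their values were seen. NFYC, a second subunit of NF-Y, was higher (0.81 ± 0.26, adjusted p = 0.0299), and RFXAP, of the RFX complex (-1.23 ± 0.30, adjusted p = 0.0104), and CREB1 (-1.08 ± 0.27, adjusted p = 0.0123) were lower. With ATRA 2 genes of the list were called, both higher: IFNGR2, a chain of the interferon-gamma receptor (0.93 ± 0.20, adjusted p = 0.0207), and RELA (0.89 ± 0.21, adjusted p = 0.0249), with a median of -0.03. Of the genes named from this list, RELA without ATRA was still called in both settings and RELA with ATRA when the GC trend was removed. The calls of NFYB, NFYC, RFXAP, CREB1 and IFNGR2 were lost in both, and CREB1 turned to 0.13 with the GC trend removed.

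Class II genes, which present peptides from outside the cell, had 7 of 9 tested, with 1 called higher and 1 lower without ATRA and a median of 0.20. CD74, the class II invariant chain, had 0.984, 0.425 and 0.813 CPM in knockout cells without ATRA, against 1.81, 3.42 and 8.13 CPM in control cells, and was lower in knockout cells (log2 fold change -2.59 ± 0.63, adjusted p = 0.0101). With ATRA CD74 had 0.580, 0.851 and 0.578 CPM in knockout cells, against 20.4, 4.89 and 13.6 CPM in control cells, and was lower in knockout cells (log2 fold change -4.27 ± 0.66, adjusted p = 0.00526). HLA-DMB, which helps load class II molecules, was higher without ATRA (1.38 ± 0.40, adjusted p = 0.0215). With the near-identical libraries summed the calls of CD74 and HLA-DMB were lost, and with the GC trend removed they were kept. No gene of the lists was called for ATRA in either genotype or for the interaction.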

How the data were processed

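Libraries of NT2/D1 mRNA were prepared with a stranded TruSeq kit from Illumina, per the labels' protocols. In the deposited table are the authors' raw read counts per gene in whole numbers, 1 column for each of the 12 libraries, and a gene length. Per the submitters' processing notes, bcl2fastq, TopHat2, Subread, featureCounts and DESeq2 were used, with hg19 and GRCh37; versions, annotation and the settings for strand and multi-mapping reads were not given in the sources used here. Antisense and overlapping genes can therefore not be separated with certainty, and the HLA genes may share reads.

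From these counts, genes were kept by filterByExpr in edgeR 4.0.16 (R 4.3.3; minimum count 10, 4 groups), scaled by TMM and fitted with a quasi-likelihood model of 1 coefficient per group over all 12 libraries. The F-test gave 5 contrasts, with Benjamini-Hochberg adjustment over 19130 genes and calls at an adjusted p under 0.05; every adjusted p is of this kind unless another tool is named. The common biological coefficient of variation was 0.367. Intervals of 95% come from the same test, values after ± are standard errors, and log2 levels use CPM + 0.1. Other settings, whose effect the closing section gives, were DESeq2 1.42.0, limma-voom (limma 3.58.1), RLE scaling, no filter, a filter of over 1 CPM in at least 3 libraries, the compared groups alone, the replicate number as a block, an absolute log2 fold change of at least 1, near-identical libraries summed, 2 knockout libraries left out, and each library left out in turn. Removal of a GC trend (GC content from GENCODE v44, known for 85.8% of tested genes and 9 of 9 members) and the genotype contrast averaged over treatments were added after the data were seen. The fits were tested on simulated data with 100 2-fold and 100 4-fold changes per comparison. The changed genes were drawn only from those with a mean above 5 CPM. PSMB8, PSMB9 and NLRC5 lie below that level, so the counts that follow do not speak of them. Of these, edgeR found 18 to 20 and 88 to 92, with 1 to 5 false calls. DESeq2 found 19 to 24 and 91 to 94, with 29 to 38 false calls. For limma-voom it was 10 to 18 and 83 to 87, with 1 to 4 false calls. The simulated spread was the fitted trend, which lies below the gene-wise spread of TAP1, PSMB8, PSMB9 and NLRC5.

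The members and lists were chosen with earlier results of these data known. Named genes are the 9 members, PRMT6, the constitutive subunits PSMB5, PSMB6 and PSMB7, of each list the 2 called genes with the smallest adjusted p (any, where at most 5 are called), and the 5 genes most like HLA-B, HLA-C and B2M. Some genes of the lists are not reported here. Only some same-numbered libraries deviated together, so numbers were not taken as pairs.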

Additional observations from a re-analysis of the deposited data

How the results depend on the processing

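Log2 fold changes of members and named genes were fitted again under up to 22 other settings each. Of these 1634 values 58 changed sign, 22 of them under settings other than leaving out a library, and none was a genotype change of B2M. The count of called members stayed at 0 of 9 in both ATRA comparisons and the interaction under every setting run. Without ATRA it was 1 (B2M) between genotypes with the GC trend removed. With ATRA it was 1 with DESeq2 (B2M), with the GC trend removed (B2M) and with no filter (PSMB8, adjusted p = 0.0467), and 0 to 1 on leaving out a library, with B2M called without control untreated 2 (adjusted p = 0.0443). In the contrast averaged over treatments it was 2 with DESeq2 and RLE scaling (B2M and HLA-B), 2 without knockout untreated 3 and knockout ATRA 2 (B2M and NLRC5), 0 with the near-identical libraries summed, 0 at an absolute log2 fold change of at least 1, and 1 to 4 on leaving out a library, with 4 (B2M, HLA-B, PSMB8 and TAP1) without control untreated 2 and 2 without control ATRA 1. Knockout untreated 3 and knockout ATRA 2 were the lowest libraries in NLRC5, so a higher NLRC5 value without them follows from the choice. The stricter filter removed PSMB9.

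Signs turned as follows; the cause was not tested. With the GC trend removed, genotype values without ATRA were -0.14 for HLA-B, -0.30 for HLA-C, -0.52 for HLA-E, -0.53 for TAP1, -0.52 for PSMB8, 0.072 for CANX and 0.13 for CREB1; HLA-E was -0.031 between genotypes with ATRA and 0.014 for ATRA in knockout cells; for ATRA in control cells HLA-B was -0.016 and PSMB9 -0.14; and interactions were 0.20 for HLA-C and -0.35 for B2M. With the near-identical libraries summed, genotype values were -0.10 for TAP1 and -0.18 for PSMB8 without ATRA and 0.032 for HLA-C with ATRA. Without knockout untreated 3 and knockout ATRA 2, they were -0.056 for HLA-C and 0.21 for NLRC5 without ATRA, and TAP2 was -0.12 for ATRA in knockout cells. With limma-voom PSMB9 was 0.66 between genotypes without ATRA and -0.11 for ATRA in control cells, and NLRC5 was -0.059 for ATRA in knockout cells.

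Leaving out each library in turn gave genotype values without ATRA of -0.087 to 0.17 for HLA-C, -0.12 to 0.23 for HLA-E, -0.43 to 1.76 for TAP1, -0.53 to 0.21 for NLRC5, -0.41 to 2.23 for PSMB8 and -1.37 to 2.31 for PSMB9. With ATRA they were -0.22 to 0.042 for HLA-C and -0.25 to 3.56 for PSMB9. For ATRA in knockout cells NLRC5 was -0.29 to 0.58 and PSMB8 -0.27 to 0.70. For ATRA in control cells HLA-B was -0.070 to 0.41, TAP1 -2.30 to 0.95 and PSMB9 -3.12 to 3.12. Interactions were -0.10 to 0.37 for HLA-B, -0.29 to 0.038 for HLA-C, -0.0049 to 0.34 for HLA-E, -0.28 to 2.97 for TAP1 and -1.98 to 4.26 for PSMB9.

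Over all genes, calls between genotypes were 6676 without ATRA (1276 with the near-identical libraries summed, 2955 with the GC trend removed, 3137 to 8333 on leaving out a library) and 1437 with ATRA (79 summed, 732 in the compared groups alone, 877 without the 2 knockout libraries, 2317 with no filter, 2964 with DESeq2, 224 to 2141 on leaving out a library). ATRA gave 6 calls in knockout and 22 in control cells (0 to 1275 and 0 to 2385 over all settings). Of 18 pairs of same-numbered libraries, 5 had deviations that correlated over 0.1 (r from -0.675 to 0.628), so the numbers are not taken as pairs. With the replicate block, 0 members were called in each of the 5 comparisons, 761 genes were called between genotypes with ATRA and 5772 without. The low counts of PSMB9, NLRC5 and PSMB8 limit what depth can show for them.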

Other observations

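Of the class II genes, HLA-DMA was at 14.9 to 22.0 CPM in knockout and 13.6 to 28.0 CPM in control libraries and HLA-DPB1 at 28.5 to 32.5 CPM and 13.5 to 30.0 CPM, whereas HLA-DRA was near 0 in most libraries and highest in the 2 control libraries that were high in TAP1 and PSMB9. HLA-DRA was at 3.599 CPM in control ATRA replicate 1 and at 0.933 CPM in control untreated replicate 2, at 0.422 CPM in knockout untreated replicate 1 and at most 0.0587 CPM in the 9 other libraries. HLA-DRB1 was at 1.72 CPM and 1.76 CPM in those 2 control libraries, against 0.205 to 0.633 CPM in the 6 knockout libraries. CIITA, the class II transactivator, was at 0.171 to 0.499 CPM in knockout libraries and 0.123 to 0.337 CPM in control libraries. HLA-F, a nonclassical class I chain, had 3.37, 3.89 and 2.57 CPM in knockout cells without ATRA, against 5.31, 8.10 and 6.70 CPM in control cells without ATRA, and its log2 fold change of -1.03 ± 0.42 was not called (adjusted p = 0.0731, edgeR).

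IRF1, an interferon response factor that acts on class I promoters, had 11.0, 11.1 and 9.59 CPM in knockout cells without ATRA, against 6.83, 5.48 and 7.04 CPM in control cells, and was not called (0.71 ± 0.30, adjusted p = 0.0799). STAT2 with ATRA had 60.3, 48.3 and 60.8 CPM in knockout cells, against 26.6, 17.2 and 39.0 CPM in control cells, and was not called either (1.03 ± 0.32, adjusted p = 0.0678). HLA-F, IRF1 and STAT2 were named after their values were seen.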
